A study of Mus musculus with 6 samples.

Results

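The transcripts described here are those of the 4 myosin heavy chain genes on the array, Myh7, Myh2, Myh1 and Myh4, of the giant elastic protein titin, Ttn, and of the intermediate filament protein desmin, Des. They were chosen by name: every probe that the platform annotation assigns to these 6 genes was taken, which gave 1 probe for each gene, 6 of the 223 probes on the array. The array carried 203 named genes in all. RNA came from soleus, a postural muscle of the calf, of C57Bl/6 mice, and each of the 6 samples is labelled a control mouse, with the genotype given as wt. From cryosections of the muscle, 3 µg of total RNA was used for each array. All 6 samples form 1 group, numbered controls 1 to 6. The labels state no age, sex or treatment. Each sample title also carries the code HUR, which the labels do not explain and which was not interpreted. Nothing in them ties each array to its own mouse, and the spread and p-values below are therefore those between these 6 samples, which may in part be technical.

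Myosin heavy chain is the motor protein of the thick filament, and the gene a fibre uses largely sets how fast it contracts. Myh7 encodes the slow chain of type I fibres, which the ventricle of the heart also uses, Myh2 the fast oxidative chain of type IIA fibres, Myh1 that of type IIX fibres and Myh4 the fastest chain, of type IIB fibres. Titin spans the sarcomere from the Z-disc to the M-band and acts as a spring and scaffold in every fibre type, and desmin ties neighbouring Z-discs to each other and to the cell membrane. Mouse soleus is known as a mixed muscle of slow and IIA fibres, with few IIB fibres.

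The slow and the fast genes lie apart in the genome. Myh2, Myh1 and Myh4 follow one another on chromosome 11 with no other protein-coding gene between them, while Myh7 lies on chromosome 14 next to Myh6, Ttn on chromosome 2 and Des on chromosome 1. Over all 6 arrays the 3 fast genes kept the steadiest ratios of the myosin pairs, so their promoters are shown beside that of Myh7. Each line gives 250 bases before the start listed by RefSeq and 20 bases after it, from 5′ to 3′ on the strand of the gene, in GRCm38.p6. The windows are chr11:67170777-67171046 (plus strand) for Myh2, chr11:67199852-67200121 (plus strand) for Myh1, chr11:67237562-67237831 (plus strand) for Myh4 and chr14:54994530-54994799 (minus strand) for Myh7, for which this is 1 of 2 listed starts. Capitals mark the longest run of bases that all 3 fast windows share and each TATAAA on the strand shown.
Myh2: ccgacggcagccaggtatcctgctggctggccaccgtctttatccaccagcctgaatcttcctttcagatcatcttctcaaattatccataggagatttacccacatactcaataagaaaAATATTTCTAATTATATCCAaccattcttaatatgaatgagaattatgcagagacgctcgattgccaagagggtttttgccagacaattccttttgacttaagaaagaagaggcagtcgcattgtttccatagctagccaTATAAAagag
Myh1: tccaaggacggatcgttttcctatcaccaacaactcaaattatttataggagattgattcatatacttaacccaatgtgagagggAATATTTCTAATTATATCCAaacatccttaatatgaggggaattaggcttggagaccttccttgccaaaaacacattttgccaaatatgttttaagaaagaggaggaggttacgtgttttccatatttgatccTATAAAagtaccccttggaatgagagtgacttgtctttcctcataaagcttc
Myh4: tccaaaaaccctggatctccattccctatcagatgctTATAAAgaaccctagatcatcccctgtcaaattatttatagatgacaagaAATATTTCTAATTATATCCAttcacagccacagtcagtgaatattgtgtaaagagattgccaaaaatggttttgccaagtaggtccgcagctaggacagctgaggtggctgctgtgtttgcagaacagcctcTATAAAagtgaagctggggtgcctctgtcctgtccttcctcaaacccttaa
Myh7: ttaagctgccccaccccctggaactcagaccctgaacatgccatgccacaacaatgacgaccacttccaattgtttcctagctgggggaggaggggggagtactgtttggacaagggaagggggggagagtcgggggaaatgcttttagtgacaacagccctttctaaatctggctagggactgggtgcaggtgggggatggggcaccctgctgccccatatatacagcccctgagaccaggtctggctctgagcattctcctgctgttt
The shared run is 20 bases long, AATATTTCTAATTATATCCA, and begins 130 bases before the listed start of Myh2, 165 before that of Myh1 and 163 before that of Myh4. Among the 32851 RefSeq windows of 300 bases around a start, searched on both strands, it occurred in those 3 and in no other, 0.00913% of them. Its presence in those 3 was fixed by how it was chosen. A given run of 20 bases is rare in any window, so this share is a description only. TATAAA begins 32 bases before the listed start of Myh1 and 31 before that of Myh4, and 11 bases into the listed transcript of Myh2. TATAAA on either strand was held by 13.6% of all windows, and by none of the windows of Myh7, Ttn and Des. The E-box CANNTG, held by 72.3% of all windows, occurred 3 times in the 300-base window of Myh4 and in neither Myh2 nor Myh1, and it occurred 2 times in that of Myh7. A match to the MEF2 consensus, held by 3.19% of windows, was found for Myh1, Myh4 and Ttn, and in Myh1 and Myh4 it overlaps a TATAAA on the opposite strand. These matches describe the letters of the windows.

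All 6 transcripts gave a signal far above background in every sample. As a noise bound for each array the size of its most negative intensity was used, which ran from 0.0018 to 0.0087, and 47.5% of the probes lay above it on all 6 arrays, as did 6 of the 6 genes. The slow myosin Myh7 had intensities of 2.60, 2.91, 2.80, 8.41, 1.46 and 1.58 in controls 1 to 6, which were 470 to 967 times the bound (median 807). Its probe ranked between the third and the seventh brightest of each array.

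**Figure D1:**
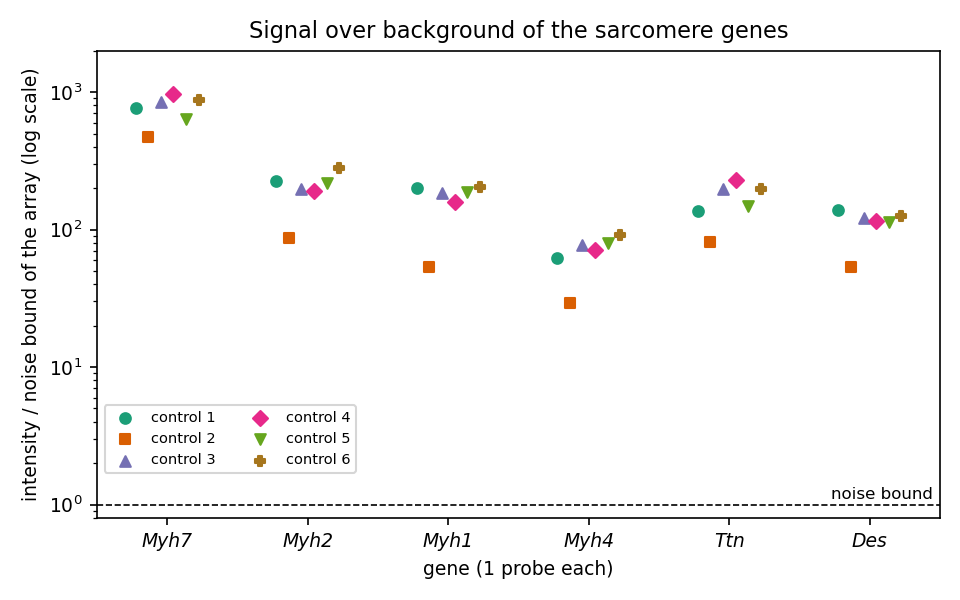
Probe intensity divided by the noise bound of its array (log scale) for each gene, with 1 point per control and a dashed line at the bound. Every point lies above the bound, the lowest being Myh4 in control 2 at 29.4 times, and control 2 is the lowest sample for each gene.

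The fast myosins were as clearly detected. Myh2 lay at 86.3 to 281 times the bound (median 208), Myh1 at 53.5 to 206 times (median 186) and Myh4, whose IIB fibres are few in this muscle, at 29.4 to 90.7 times (median 73.9). Titin lay at 81.0 to 228 times (median 173) and desmin at 53.3 to 139 times (median 119). For each of the 6 genes the lowest of these values was in control 2, the array with a high noise bound for its brightness. Adding the whole bound to an intensity would have moved the log2 value of Myh4 by at most 0.05 and that of Myh7 by at most 0.003. Together the 6 probes gave 9.44% to 12.02% of the summed intensity of an array.

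Array brightness differed between samples, with a 4.15-fold range of the array median, so the samples were compared through ratios of 2 probes on the same array. Such a ratio does not depend on brightness. Its size carries the affinity of both probes and does not give the ratio of the transcripts, whereas its change from sample to sample does not depend on a fixed affinity. Whether a probe for 1 fast myosin also binds the closely related transcript of another was not checked, because the probe sequences were not analysed here.

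The slow-to-fast ratios varied 1.87-fold to 2.60-fold between control samples. The ratio of Myh7 to Myh2 was 3.38, 5.44, 4.31, 5.09, 2.90 and 3.13 in controls 1 to 6. Controls 2, 4 and 3 were the highest and controls 5, 6 and 1 the lowest, with a 1.87-fold range and a mean log2 ratio of 1.97 ± 0.38 (SD, n = 6). Against Myh4 the ratio of Myh7 was 12.3, 16.0, 11.01, 13.7, 7.95 and 9.68, a 2.01-fold range, with a mean log2 ratio of 3.52 ± 0.36 (SD, n = 6). Control 2 was again the highest and control 5 the lowest, and control 4 was second.

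The ratio of Myh7 to Myh1 had the widest spread of the 15 ratios between these genes. It was 3.81, 8.79, 4.62, 6.12, 3.38 and 4.27, a 2.60-fold range, with a mean log2 ratio of 2.29 ± 0.51 (SD, n = 6). Control 2 accounted for much of this, and without it the SD was 0.32. The 3 slow-to-fast ratios share the Myh7 probe and are not independent of each other. Control 2 gave the highest value of all 3, and control 5 the lowest. In whole muscle, fewer fibres of a type and less transcript per fibre cannot be told apart.

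**Figure D2:**
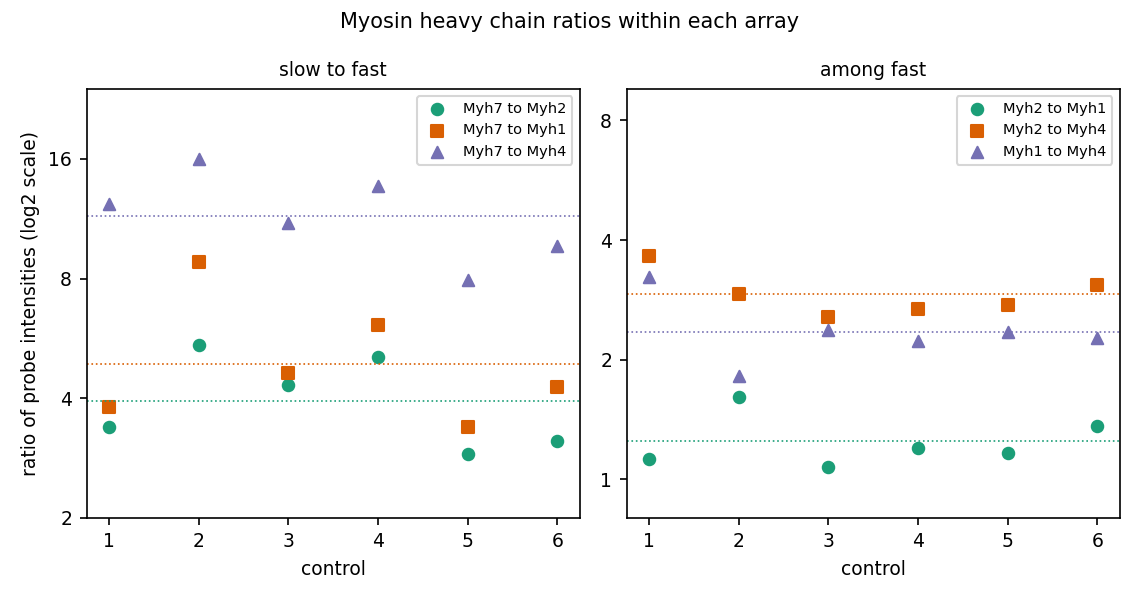
Ratios of myosin probe intensities within each array (log2 scale, both panels spanning the same 12-fold range), slow to fast on the left and among the fast genes on the right, with a dotted line at the geometric mean of each ratio. On the left all 3 ratios peak in control 2 and are lowest in control 5, and on the right the points lie closer to their lines, with the largest departures in controls 1 and 2.

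Other values of the arrays moved with these ratios in part. The log2 distance from the median to the 90th percentile of an array, a measure of how far its bright genes stand out, was 4.54, 4.53, 4.05, 4.09, 3.91 and 4.21 in controls 1 to 6, and so was lowest in control 5 and high in control 2, but also in control 1, where the ratio to Myh2 was low. The interquartile range of the log2 values set control 2 apart, with 4.01 against 3.17 to 3.32 in the other samples. Control 2 also had 67 probes at or below 0, against 27 to 37 in the others, and the fewest probes above the noise bound, 109 against 143 to 166. The part of these array properties in the ratios was not tested. With the arrays brought to 1 common distribution by quantile normalization, the ratio of Myh7 to Myh2 was 4.00, 3.98, 4.36, 5.25, 2.38 and 3.86. It was then highest in control 4 and still lowest in control 5, and the SD of its log2 was 0.38. After cyclic loess, which removes intensity-dependent differences between arrays, the SD was 0.36, with control 4 the highest and control 5 the lowest. Against Myh4, too, control 4 became the highest under both and control 5 stayed the lowest. Against Myh1, control 2 stayed the highest under both, at 6.95 and 8.06, and the lowest sample was control 5 after quantile normalization and control 1 after cyclic loess.

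The fast myosins kept steadier ratios to one another. Myh2 to Myh4 was 3.64, 2.93, 2.56, 2.69, 2.74 and 3.09 in controls 1 to 6, a 1.43-fold range, with a mean log2 ratio of 1.55 ± 0.18 (SD, n = 6). Control 1 was the highest, and without it the SD was 0.11. After quantile normalization control 1 was instead the lowest, at 2.61, and after cyclic loess it stayed the highest, at 3.60. Myh2 to Myh1 was 1.13, 1.61, 1.07, 1.20, 1.16 and 1.36, a 1.51-fold range, with a mean log2 ratio of 0.32 ± 0.22 (SD, n = 6). Here control 2 was the highest, and without it the SD was 0.13.

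In its ratio to Myh4 before normalization, Myh1 stood out in controls 1 and 2 in opposite directions. Its ratio to Myh4 was 3.23 in control 1 and 1.82 in control 2, and 2.23 to 2.38 in the other samples. The mean log2 ratio was 1.23 ± 0.27 (SD, n = 6), and 0.16 was the SD without control 1. After quantile normalization the ratio was 2.15 in control 1 and 1.76 in control 2, both below the 2.30 to 2.81 of the other samples. After cyclic loess it was 3.21 in control 1 and 1.78 in control 2, against 2.26 to 2.39 in the others. Relative to the array median, the log2 level of Myh1 was 5.41 in control 1 and 4.40 to 4.65 in the rest. The SDs of the slow-to-fast ratios, 0.36 to 0.51, were above those among the fast genes, 0.18 to 0.27, but this difference was not tested. When each array was left out in turn, the median SD was 0.32 to 0.42 for slow to fast and 0.16 to 0.24 among the fast genes. The single SDs then overlapped without control 5, where Myh7 to Myh4 had 0.28 and Myh1 to Myh4 0.30.

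Titin had its steadiest ratio to the slow myosin. The ratio of Ttn to Myh7 was 0.180, 0.172, 0.232, 0.236, 0.234 and 0.224 in controls 1 to 6, a 1.37-fold range, with a mean log2 ratio of -2.24 ± 0.21 (SD, n = 6). Controls 1 and 2 were low and the other 4 lay within 0.224 to 0.236. After cyclic loess the SD was 0.12, with a 1.21-fold range, and after quantile normalization it was 0.23. Against the fast genes the log2 SD of titin was 0.38 for Myh2, 0.46 for Myh1 and 0.28 for Myh4. The ratio of Ttn to Myh1 ran from 0.684 in control 1 to 1.52 in control 2, a 2.21-fold range. These SDs were not tested against each other.

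**Figure D3:**
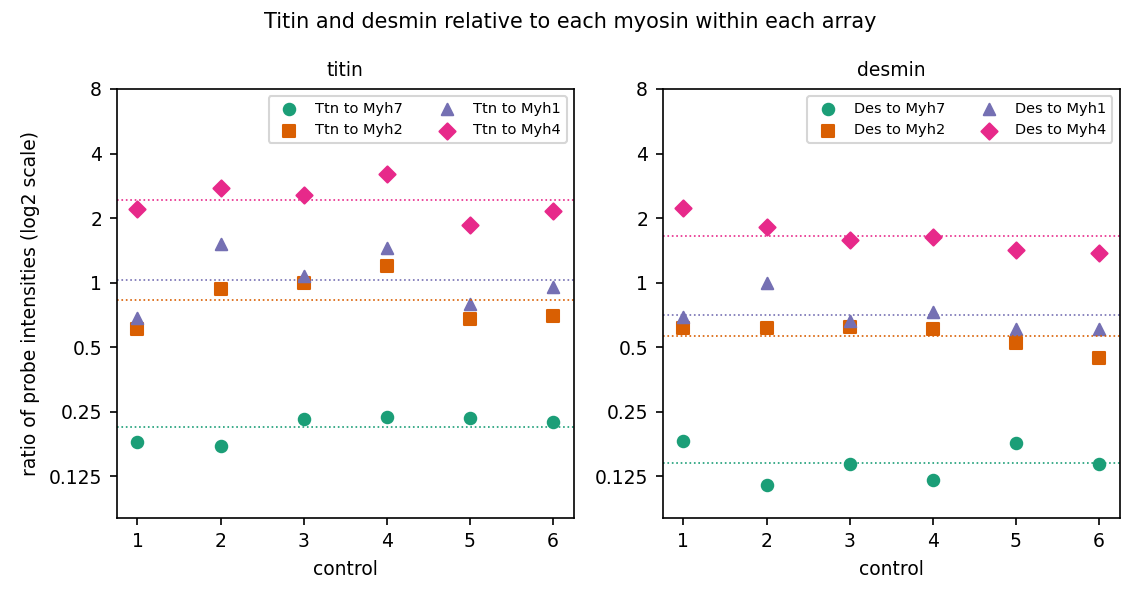
Ratios of the titin probe (left) and the desmin probe (right) to each myosin probe within each array (log2 scale), with a dotted line at the geometric mean of each ratio. Titin to Myh7 stays between 0.172 and 0.236, and desmin to Myh2 between 0.446 and 0.618.

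Over all 6 arrays, desmin had its smallest ratio SD against the IIA myosin, though which myosin this was depended on the arrays and the normalization. Des to Myh2 was 0.614, 0.618, 0.618, 0.610, 0.520 and 0.446 in controls 1 to 6, a 1.39-fold range, with a mean log2 ratio of -0.82 ± 0.20 (SD, n = 6). Controls 1 to 4 were nearly equal, and controls 5 and 6 were lower. Without control 6 the SD was 0.11. Des to Myh7 was 0.182, 0.113, 0.143, 0.120, 0.179 and 0.142, with a log2 SD of 0.28 and a 1.60-fold range. That ratio was highest in control 1 and lowest in control 2. The SD was 0.27 for Des to Myh1 and 0.12 without control 2, where the ratio was 0.997 against 0.606 to 0.733 in the other samples. For Des to Myh4 it was 0.26, and 0.16 without control 1. Des to Myh2 had 0.21 without control 1 and 0.21 without control 2, and so did not have the smallest SD there. After quantile normalization it had 0.23, against 0.15 for Des to Myh4.

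Titin and desmin did not keep a constant ratio to each other. Ttn to Des was 0.989 in control 1 and 1.97 in control 4, a 1.99-fold range with control 1 alone below 1. Its log2 SD was 0.34, and 0.21 without control 1.

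Beside all pairs of genes and unnamed probes, the pairs of these 6 genes included, most ratios between these genes were steady. Part of that went with their brightness. Of the 15 ratios, 12 stayed within a 2-fold range over the 6 arrays, against 20.5% of the 5460 pairs of genes above the noise bound on all arrays. A 1.5-fold range was kept by 3 of the 15, Myh2 to Myh4, Ttn to Myh7 and Des to Myh2, against 4.01% of all pairs. Pairs of bright genes varied less. Over the 231 pairs of the 22 genes and unnamed probes at or above the level of Myh4, the dimmest member, 44.2% kept a 2-fold and 10.8% a 1.5-fold range. The members are among these 22. Without control 1 the 2-fold range was kept by 13 of the 15 ratios, against 36.4% of all and 65.4% of bright pairs, and without control 2 by 14, against 31.2% and 56.7%. Without control 1 the 1.5-fold range was kept by 5 of the 15 ratios, against 12% of all and 26.8% of bright pairs, and without control 2 by 6, against 9.03% and 19.9%. The median log2 SD was 0.28 over the 15 ratios, 0.59 over all pairs and 0.39 over the pairs of bright genes. The 3 slow-to-fast ratios, with a median of 0.38, lay close to the bright pairs, and 47.2% of those had an SD no larger than that of Myh7 to Myh2. For Myh2 to Myh4 this share was 4.33%, for Des to Myh2 6.06% and for Ttn to Myh7 9.52%. The 3 largest of the 15 shares were 67.5% for Myh7 to Myh1, 61.5% for Ttn to Myh1 and 48.1% for Ttn to Myh2. Pairs share genes, so these shares are descriptions. All are for values before normalization. After quantile normalization Myh7 to Myh2, Ttn to Myh4 and Ttn to Des also varied more than 2-fold, at 2.21, 2.19 and 2.04. After cyclic loess Ttn to Des was at 2.01, while Myh7 to Myh4 came within 2-fold, at 1.69. The shares of other pairs after normalization are not given here.

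**Figure D4:**
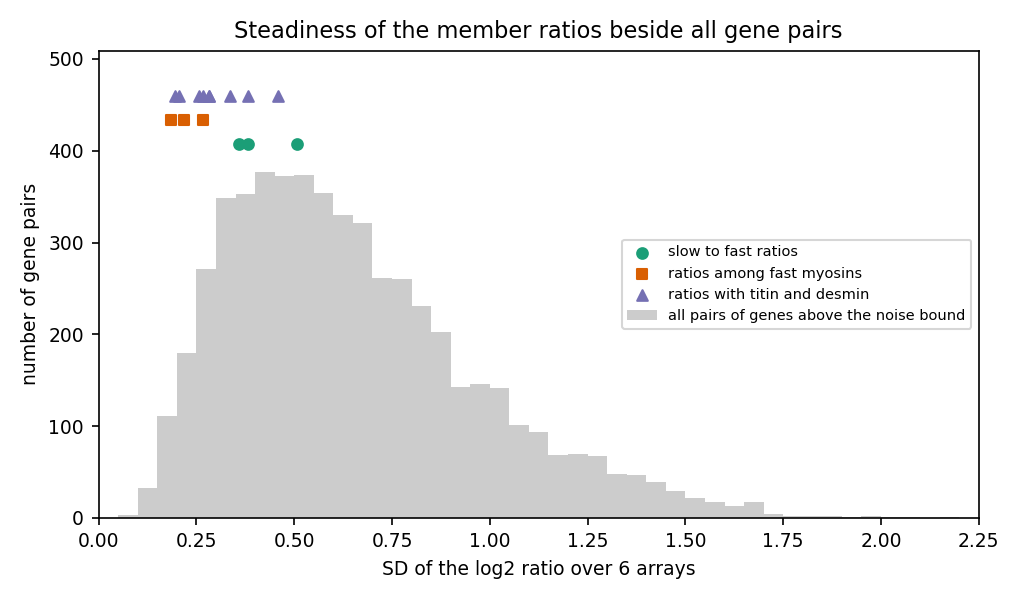
Histogram of the SD of the log2 ratio over the 6 arrays for 5460 pairs of genes above the noise bound (bars, number of pairs), with the 15 ratios between the myosins, titin and desmin as points above it, whose height has no meaning. The points lie between 0.18 and 0.51, below the median of all pairs, 0.59.

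**Figure D5:**
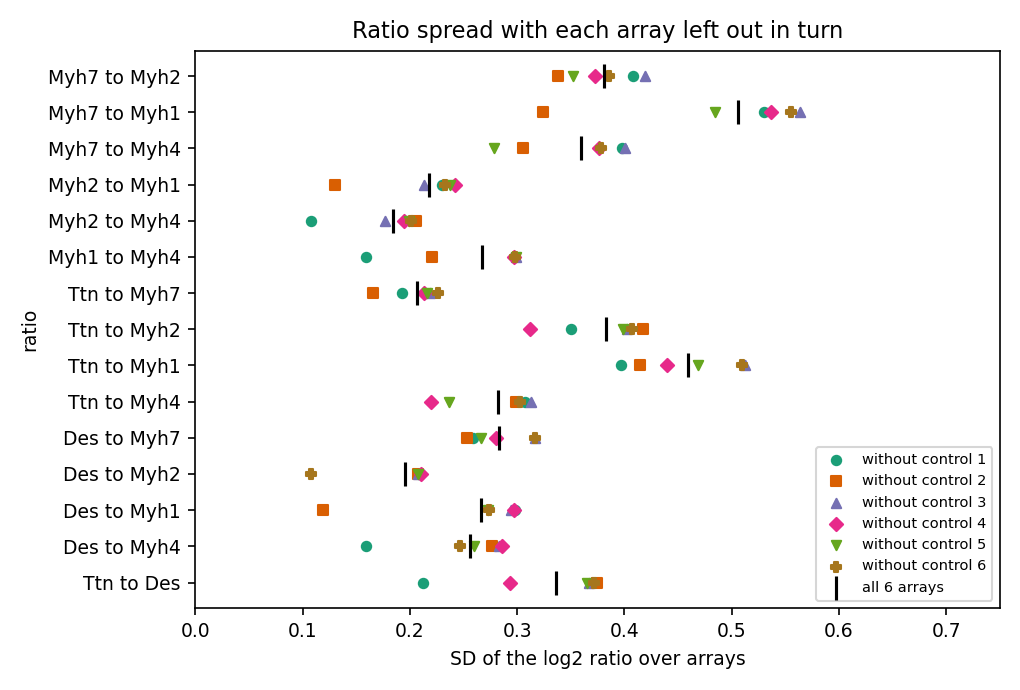
SD of the log2 ratio for each of the 15 ratios over all 6 arrays (black bar) and with each control left out in turn (coloured points). The SD of Myh2 to Myh1 falls from 0.22 to 0.13 without control 2, and that of Ttn to Des from 0.34 to 0.21 without control 1.

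As single genes, none of the 6 passed the test for a spread beyond that of genes of like intensity. Levels were log2 intensities relative to the median of the array over the 152 genes and unnamed probes with a signal above 0 on all arrays. The level of Myh7 was 7.34, 7.67, 6.86, 7.15, 6.15 and 6.62 in controls 1 to 6, highest in control 2 and lowest in control 5. That of Ttn was 4.86, 5.13, 4.75, 5.07, 4.06 and 4.46, with the same highest and lowest sample. For Myh2, Myh1, Myh4 and Des the top sample was control 1, and control 5 was again at the bottom. Control 1 was also the top sample for 51 of all 152, and control 5 the bottom one for 58. In limma, with a one-sided F test of each variance against its intensity-trended prior and Benjamini-Hochberg adjustment, 2 of 152 passed (1.32%), neither of them a gene described here. The adjusted p in that limma test was 0.911 for Myh7 (SD 0.54), 0.921 for Des (0.45), 0.930 for Ttn (0.40), 0.961 for Myh1 (0.37) and Myh2 (0.36), and 0.996 for Myh4 (0.21).

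The levels also showed no trend with array brightness that passed the test. The slope of the level on the log2 array median was -0.04 ± 0.30 (SE, n = 6) for Myh7, 0.12 ± 0.26 for Ttn and -0.23 ± 0.24 for Myh2. For Des it was -0.16 ± 0.28, for Myh1 -0.12 ± 0.25 and for Myh4 -0.10 ± 0.23, with adjusted p = 0.986 in limma for each of the 6. Over all 152, 0 passed in either direction (0%), and 1 had an unadjusted p under 0.05. No other tool was run. Control 4 was much brighter than the rest, and without it the slopes were -1.16 for Myh7, -0.90 for Myh2 and -0.84 for Des, each with an adjusted p of 0.904 in limma. The slope of Ttn was then -0.62 (adjusted p = 0.915 in limma), of the opposite sign. Levels are relative to that same array median, so these slopes are not independent of it. With summed intensity as brightness over all 6 arrays, a sum that includes these genes, the slopes were 0.30 for Myh7, 0.36 for Ttn and 0.09 for Des. They were 0.02 for Myh4, -0.02 for Myh1 and -0.06 for Myh2, with adjusted p = 0.993 in limma for each of the 6.

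The genes whose ratio to each member varied least differed from member to member. For Myh7 they were Acadl and Ucp3, an enzyme of fatty acid oxidation and a mitochondrial uncoupling protein, and Mdh2, mitochondrial malate dehydrogenase, with log2 SDs of 0.10, 0.16 and 0.16 over the 6 arrays. For Ttn they were the glucose transporter Slc2a4 (0.12), the lipoprotein receptor Vldlr (0.17) and the protease inhibitor Timp3 (0.17). For Des they were the growth factor Vegfb (0.16), the IGF-binding protein Igfbp4 (0.17) and lipoprotein lipase, Lpl (0.17). Among the fast myosins, Myh2 had the glucose transporter Slc2a1 (0.17), Myh4 (0.18) and the glycolytic enzyme Gapdh (0.19). Myh1 had the transcriptional regulator Cited2 (0.16), the receptor Igf2r (0.17) and Myh2 (0.22), and Myh4 had the cytochrome oxidase subunit Cox4i1, the growth factor Tgfb1 and the receptor Kdr (0.13, 0.13 and 0.14). Each is 1 of the 3 smallest SDs among 104 genes compared, so small values are favoured by the choice.

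Of a list of 84 other contractile and fibre-type genes, 14 were on the array, and 11 lay above the noise bound on all arrays. Myoglobin, Mb, the oxygen store of oxidative fibres, had log2 SDs of 0.32 against Ttn, 0.34 against Myh4, 0.35 against Myh7, 0.44 against Myh2, 0.47 against Des and 0.60 against Myh1. Mb to Myh7 was 0.653, 1.03, 0.920, 0.860, 1.26 and 1.19 in controls 1 to 6, with control 1 at the bottom and control 5 at the top. The lactate dehydrogenase subunit Ldhb was steadier against Myh7, with an SD of 0.20, than against Myh2, Myh1 and Myh4, with 0.31, 0.44 and 0.35. Gapdh had 0.37 against Myh7, and 0.19, 0.24 and 0.17 against Myh2, Myh1 and Myh4. The muscle transcription factors Myf6 and Mef2c had SDs of 0.28 and 0.41 against Myh7, and 0.27 and 0.26 against Des, while Mef2a had 0.53 against Myh7 and 1.00 against Myh1. Mef2a lay near the bound, at 1.91 to 5.41 times, and Mef2c at 23.2 to 84.9 times. Capn3, a titin-binding protease, was above the bound on 4 arrays, Myod1 also on 4 and Myf5 on 0. The nuclear receptor Ppara, the mitochondrial carnitine palmitoyltransferase Cpt1b, Myog, Aldoa and Ldha were the others above it on all 6. Against Myh7, Myh2, Myh1 and Myh4, the SDs were 0.45, 0.36, 0.45 and 0.21 for Cpt1b and 0.33, 0.40, 0.54 and 0.51 for Ldha. They were 0.44, 0.43, 0.52 and 0.28 for Aldoa, 0.62, 0.48, 0.42 and 0.36 for Ppara, and 0.37, 0.58, 0.74 and 0.54 for Myog. So Ldha, unlike Gapdh, had its smallest of these against Myh7, and Cpt1b, unlike Ldhb, against Myh4. Ldha lay at only 1.56 to 3.53 times the bound, and Myog at 1.76 to 3.54 times.

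Lists of cell type markers were set beside this. The 7 muscle fibre markers on the array, which are Mb and the 6 genes described here, were above the bound on all arrays, with a summed intensity of 429, 544, 329, 376, 245 and 316 times the array median in controls 1 to 6. The 5 endothelial markers on the array, of which 4 were above the bound on all arrays, summed to 5.98, 9.11, 9.12, 8.06, 13.1 and 9.66, so that control 5 had the largest sum and control 1 the smallest. The fibroblast markers Pdgfra and Fn1, of which 1 was above the bound on all arrays, summed to 3.78 to 8.85 and were highest in control 1. The adipocyte markers Fabp4 and Pparg, 1 above the bound on all arrays, summed to 3.43 to 10.6. Their sum was highest in control 2, as were the muscle fibre sum and the slow-to-fast ratios. All sums in these lists are relative to the array median and so, unlike ratios within an array, depend on it. The pericyte marker Pdgfrb ran from 0.589 to 0.896. The satellite cell and myoblast markers Myf5, Myod1 and Myog summed to 0.432 to 0.979. Only Myog was above the bound on all arrays, and Myf5 was above it on none. None of the listed markers of blood, nerve and heart was on the array. The part of other cell types in the differences between samples was not tested.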

How the data were processed

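The deposited table held 1 intensity per probe and array for 223 probes. How it was scanned, corrected for background or scaled is not given in the sources used here. Probes were named through the platform annotation (205 with 1 gene, 0 with several, 18 with none), and the identifiers of all 6 members matched their symbols in the GRCm38.p6 gene table. No coordinates of the probes are given.

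Intensities were taken to log2. For single-gene fits, probes above 0 on all 6 arrays were kept, probes of a gene were averaged and arrays were centred on their median, which gave 152 genes and unnamed probes. Ratios were differences of log2 intensities within an array. Fits used R 4.3.3 with limma 3.58.1 and statmod 1.5.0, with robust, intensity-trended priors. On simulated data with 152 genes the spread test recovered 35% of genes with a 4-fold SD and 85% with a 10-fold SD, and the slope test 97.3% of genes with a slope of 2. Promoters came from RefSeq. The number of arrays limits the precision.

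The members, gene lists and tests were chosen with earlier results of these data known. The nearest genes are the 3 with the smallest SD of the log2 ratio to each member among genes above the noise bound on all arrays. Every gene of the contractile list on the array was named, with some of its ratio SDs where it lay above the bound on all arrays. Alternatives were other noise bounds, an added or floored bound, quantile and cyclic loess normalization, other filters and priors, other measures and each replicate left out.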

Additional observations from a re-analysis of the deposited data

Results flagged for a closer look

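Of 21 values checked over the 6 samples (the levels of the 6 genes and their 15 ratios), 1 had a sample far from the others. The level of Myh1 was 5.41 in control 1, against 4.40 to 4.65 in the other samples, a gap of 0.747 of the whole range, past Dixon's limit for 6 samples. Chance flags about 1 in 20 such groups. The SD of this level was 0.37 with all samples and 0.09 without control 1. The ratio of Myh1 to Myh4 in control 1 was not past the limit, with a gap of 0.529, nor was that of Des to Myh1 in control 2, with 0.616.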

How the results depend on the processing

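All 165 alternative values of the mean log2 ratios stayed within 1 SD of the mean with all arrays. Under each noise bound tried and with each replicate left out, 6 of 6 members lay above background. Most of these outcomes were fixed in advance. Leaving out 1 of 6 arrays or taking the median cannot move a mean by 1 SD. A floored bound changed no member, and members above the bound on all arrays stay above it on fewer. Only quantile and cyclic loess normalization, an added bound and the bound taken 2 times could have changed these results. The SDs kept within 1.5 times in 151 of 165 alternatives, and the exceptions on leaving out 1 array are given with the ratios. With the scaled median absolute deviation in place of the SD, Des to Myh2 had 0.02, Ttn to Myh7 0.07, Myh1 to Myh4 0.07 and Des to Myh7 0.43, and after quantile normalization the SD of Des to Myh4 was 0.15. The share of gene pairs with a ratio at least as steady depended on the pairs taken. Its median was 21.2% for slow to fast, 3.66% among the fast genes and 8.85% for titin and desmin. It was 12.1%, 1.93% and 4.82% over pairs of genes above 0, and 47.2%, 10.8% and 23.8% over pairs of bright genes, a choice made after seeing the data. The number of genes with excess spread, 2, was 1 with the filter of 4 arrays and 0 with the noise-bound filter, after quantile or cyclic loess normalization, without robust estimation and without the trend, where 10, 5, 4, 2, 5 and 8 had an unadjusted p under 0.05 in limma. It ranged from 0 to 2 with each replicate left out. Under no alternative did a member pass either limma test, the lowest adjusted p being 0.788 for spread and 0.904 for slope. The cause of these shifts was not tested. No paired analysis was possible because all samples belong to 1 group. Signal over background did not limit the members, and the number of arrays does.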
